A study of Mus musculus with 13 samples.

Results

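Aquaporins are membrane channels that carry water, and in some members also glycerol or hydrogen peroxide, across cell membranes. The genes described here were Aqp1, Aqp3, Aqp4, Aqp7, Aqp8, Aqp9 and Aqp11, 7 of the 53465 genes in a table of liver counts. They were chosen as a family in which Aqp4 had already been seen to differ between the genotypes, so their differences between genotypes are given as a description, with no test, and nothing is supported by them. Of the 7 genes, 5 passed the filter on low counts that left 13545 genes for testing, and Aqp3 and Aqp7 did not.

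RNA was sequenced from the livers of 6 WT and 7 Nod2-/- mice, 1 library per mouse. All were BALB/c mice 30 weeks of age by their labels, male by the study's methods, and all had received DMBA, a carcinogen, as pups and were then kept on a high fat diet, so neither group was untreated. The study's text gives a time on the diet that is slightly longer than the age given by the labels. Nod2 is an intracellular receptor for fragments of bacterial cell wall, and the Nod2-/- mice lacked it in every tissue and were bred apart from the WT mice, so genotype and breeding line cannot be told apart. The labels gave cancer as the disease state of both groups. The paper reported more liver tumors and more weight gain in male Nod2-/- than in male WT mice under this treatment. Genotype therefore cannot be told apart from tumor load or obesity. Library depth was 14886273 to 20579984 counts in WT and 13824780 to 19391431 counts in Nod2-/- mice. Nod2 had 0 to 4 counts in WT and 1 to 6 counts in Nod2-/- mice, too few to check the labels.

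Members of the family share a fold in which a pair of short loops, each carrying an asparagine-proline-alanine motif, meet in the middle of the pore. Orthodox aquaporins such as Aqp1, Aqp4 and Aqp8 pass mainly water, and Aqp8 also passes hydrogen peroxide. The aquaglyceroporins Aqp3, Aqp7 and Aqp9 pass glycerol as well, and Aqp11 belongs to a divergent branch found in the endoplasmic reticulum. In liver, Aqp9 lies in the hepatocyte membrane facing the blood and takes up glycerol for glucose and triglyceride synthesis, Aqp8 lies in the canalicular membrane and in vesicles and serves bile formation, and Aqp1 lies in the bile ducts and vessels. Aqp7 releases glycerol from adipocytes, Aqp3 is known from skin and kidney, and Aqp4 is best known from the end feet of astrocytes, with further sites in airway epithelium, gastric parietal cells and skeletal muscle.

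The motif windows below were read from reference transcripts (GENCODE release 21, build GRCm38) of the 4 channels with the highest counts, to show where the family members are alike and where they differ. Each is 27 bases of coding sequence, 5′ to 3′ on the strand of the gene, with the codons of the motif in capitals. The windows lie in coding exons, at chr6:55336707-55336733 and chr6:55345828-55345854 (plus strand) for Aqp1, at chr7:123464193-123464219 and chr7:123466602-123466628 (plus strand) for Aqp8, at chr9:71132732-71132758 and chr9:71122841-71122867 (minus strand) for Aqp9, and at chr7:97737676-97737702 and chr7:97729044-97729070 (minus strand) for Aqp11.
Aqp1, first motif: gctcacctcAACCCTGCGgtcacactg
Aqp8, first motif: ggacacttcAACCCTGCTgtgtcgctg
Aqp9, first motif: ggccacatcAACCCAGCGgtgtctttt
Aqp11, first motif: acagctagcAACCCGTGCggcgtgatg
Aqp1, second motif: tgcggtatcAACCCTGCCcggtcattt
Aqp8, second motif: gcctgcatgAACCCTGCTcgtgccttt
Aqp9, second motif: tgtgccatgAACCCTGCTcgagacctc
Aqp11, second motif: gcattgtttAACCCAGCGctggcactt

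Aqp1, Aqp8 and Aqp9 encode asparagine, proline and alanine at both sites. Aqp11 has a cysteine codon in place of alanine at its first motif and the usual alanine at its second. The reading frames encode 269 residues for Aqp1, 261 for Aqp8, 321 for Aqp9 and 271 for Aqp11.

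Aqp9 was the most abundant channel of the liver in both genotypes. On the scale of CPM (counts scaled to library size) per kilobase of exon, on which levels of different genes can be compared, Aqp9 was at 102 ± 12.9 (SD, n = 6) in WT and 89.4 ± 17.7 (SD, n = 7) in Nod2-/- mice. Aqp8 followed at 49.6 ± 18.6 in WT and 56.0 ± 20.8 in Nod2-/- mice, and Aqp1 at 27.2 ± 3.07 and 26.9 ± 5.30. The levels of Aqp8 and Aqp1 touched at the edges, since Aqp8 ranged from 30.1 to 73.2 in WT mice, where Aqp1 ranged from 23.1 to 31.1. In Nod2-/- mice Aqp8 ranged from 33.9 to 94.3 and met both Aqp1, which reached 34.6, and Aqp9, which began at 58.6. Aqp11 was lower, at 7.51 ± 1.63 and 6.19 ± 0.980. Aqp4 stood below it at 2.43 ± 0.953 in WT and 0.134 ± 0.0715 in Nod2-/- mice, so the order of the 5 means was the same in both genotypes. Of all counts on the 7 channels, Aqp9 took a median of 64.2% in WT (56.3% to 70.8%) and 62.0% in Nod2-/- mice (52.5% to 71.3%), while Aqp4 took 2.36% in WT (1.23% to 2.97%) and 0.133% in Nod2-/- mice (0.0692% to 0.264%).

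Aqp4 was the channel whose counts set the genotypes apart. Normalized counts, which are counts scaled to a common library size, were 347, 323, 187, 339, 193 and 114 in WT replicates 1 to 6, from 339, 295, 207, 309, 175 and 139 counts. In Nod2-/- replicates 1 to 7 they were 27.5, 19.8, 14.4, 8.98, 10.5, 7.97 and 7.84, from 26, 20, 14, 9, 12, 7 and 8 counts. Every WT mouse lay above every Nod2-/- mouse, and the lowest WT mouse was 4.14-fold above the highest Nod2-/- mouse. The mean was 251 ± 98.5 (SD, n = 6) in WT and 13.9 ± 7.39 (SD, n = 7) in Nod2-/- mice, 18.1-fold lower, and the ratio of the medians was 24.5. The fitted log2 fold change, Nod2-/- minus WT, was -4.17 ± 0.34 (SE), the third lowest of the 13545 genes tested, for which the median was 0.02. A gene annotated on the opposite strand over Aqp4 had no entry in the deposited counts. The strand setting of the counting is not given in the sources used here, so its reads cannot be told apart from those of Aqp4. In bulk RNA, fewer cells that express Aqp4 and less Aqp4 RNA per cell cannot be told apart.

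**Figure D1:**
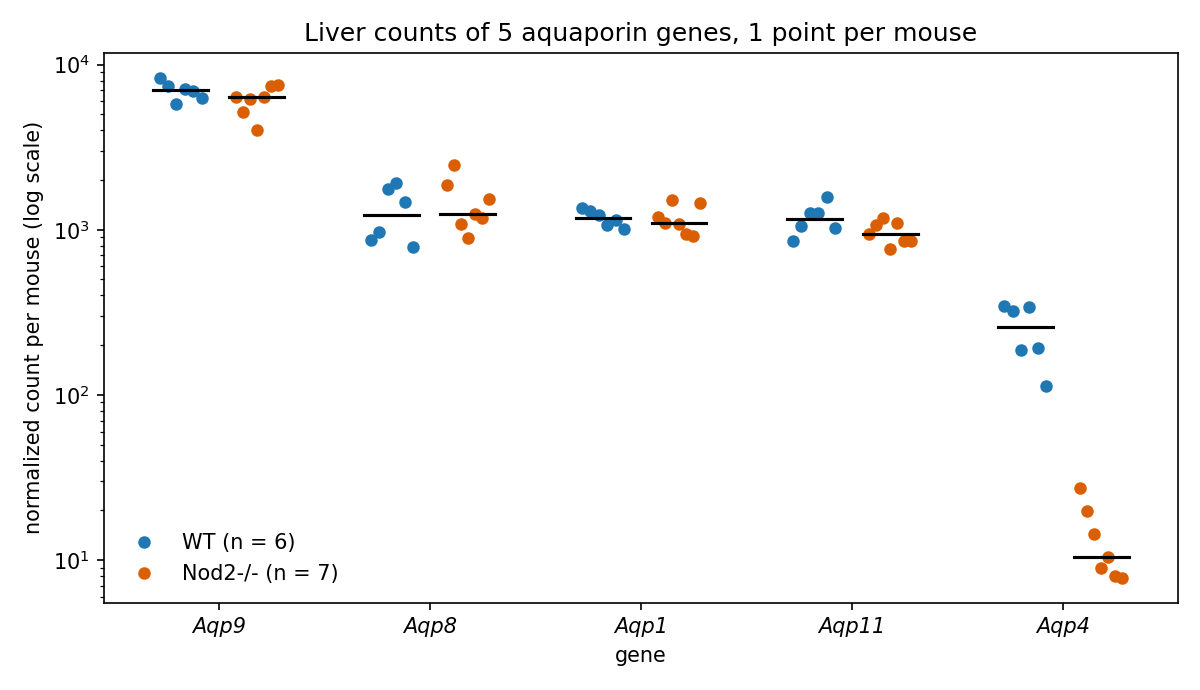
Normalized counts (log axis) of the 5 channels that passed the filter, by gene, with 1 point per mouse (blue, 6 WT mice; orange, 7 Nod2-/- mice) and the median of each group as a black line. The groups interleave for Aqp9, Aqp8, Aqp1 and Aqp11, whereas for Aqp4 the WT mice lie between 114 and 347 and the Nod2-/- mice between 7.84 and 27.5.

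The other channels overlapped between genotypes. Among the 5, the groups were separate for 1, Aqp4, where 1.44% of all genes tested had separate groups. Since Aqp4 was chosen on this contrast, nothing is read from that count.

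Aqp9, the glycerol channel of hepatocytes, had normalized counts from 5736 to 8290 (median 7052) in WT and from 4027 to 7473 (median 6362) in Nod2-/- mice. Its log2 fold change was -0.19 ± 0.14 (SE). The lowest values came from Nod2-/- replicate 4 at 4027 and replicate 2 at 5146, and the other 5 Nod2-/- mice lay within the WT range. A gene on the opposite strand, Gm32511, overlaps Aqp9. It had 35 to 67 counts in WT and 4 to 57 in Nod2-/- mice, between 0.0991% and 0.947% of the Aqp9 count of the same mouse. Without the strand setting, reads of this pair cannot be told apart, and these shares do not bound how many were assigned to either gene.

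Aqp8, the channel of the canalicular membrane, varied most among the 4 that overlapped, with a coefficient of variation of 37.6% in WT and 37.2% in Nod2-/- mice. Its normalized counts were 790 to 1920 (median 1220) in WT and 888 to 2471 (median 1243) in Nod2-/- mice. The log2 fold change was 0.18 ± 0.26 (SE). WT mice fell into values of 790, 870 and 971 and values of 1468, 1774 and 1920, and the Nod2-/- mice covered both ranges.

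Aqp1, the water channel of bile ducts and vessels, was the steadiest in WT mice, with a coefficient of variation of 11.3%, against 19.7% in Nod2-/- mice. It ranged from 1008 to 1354 normalized counts (median 1184) in WT and from 921 to 1508 (median 1092) in Nod2-/- mice. The log2 fold change was -0.02 ± 0.12 (SE), and 2 Nod2-/- mice lay above and 2 below the WT range.

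Aqp11, the channel of the endoplasmic reticulum, ranged from 852 to 1578 normalized counts (median 1156) in WT and from 762 to 1179 (median 942) in Nod2-/- mice. The log2 fold change was -0.28 ± 0.14 (SE). WT replicates 3, 4 and 5 at 1271, 1263 and 1578 lay above every Nod2-/- mouse, and 1 Nod2-/- mouse, replicate 4 at 762, lay below every WT mouse.

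**Figure D2:**
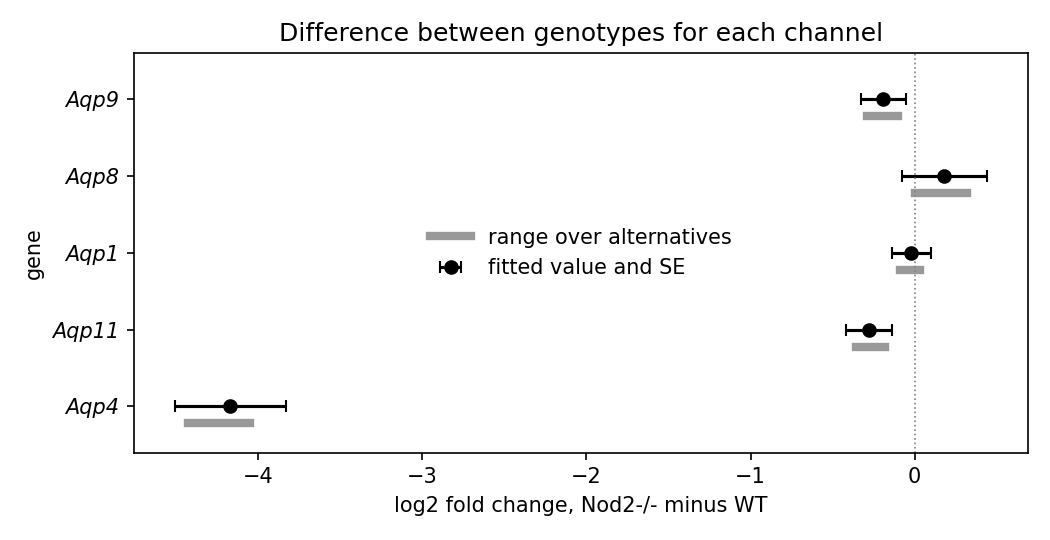
Fitted log2 fold change, Nod2-/- minus WT, of each channel (black points) with its standard error, and below each the range over alternative tests, normalizations, filters and left-out mice (grey bars). Aqp4 lies at -4.17 with a range of -4.43 to -4.05, and the other 4 lie between -0.28 and 0.18.

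Aqp3 and Aqp7, the remaining aquaglyceroporins, were at or near the limit of detection. Aqp3 had at most 1 count in a WT and 2 counts in a Nod2-/- mouse. Aqp7 had 1 to 3 counts in WT and 0 to 5 in Nod2-/- mice. A count of 0 allows up to 3 counts per library, which covers counting error only, so no fold is given for either gene and a difference was not detectable at this depth. The 6 markers of adipocytes, the cells in which Aqp7 is known to act, summed to 1.65 to 3.89 CPM in WT and 2.26 to 6.50 CPM in Nod2-/- mice. On average over the mice the sum was mostly Adrb3, with a mean of 56.9 counts, against 4.38 for Cfd and 1.08 for Adipoq. The part of adipocytes in it was not tested. Of the 6 markers, Plin1 and Lep were at no more than 3 counts in any mouse. Adrb3, the only marker of the list that could be tested, was at 39.8 ± 12.6 normalized counts (SD) in WT and 70.8 ± 20.4 in Nod2-/- mice, with an adjusted p of 0.0803 in edgeR and 0.0201 in DESeq2.

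Among the aquaporin genes outside the 7, Mip, Aqp2, Aqp6 and Aqp12 had 0 counts in all 13 mice. Aqp5, a water channel of glands and lung, was at 1, 9, 6, 10, 1 and 3 counts in WT replicates 1 to 6 and at 0, 1, 1, 2, 4, 0 and 0 counts in Nod2-/- replicates 1 to 7. The groups overlapped, and Aqp5 was too low for the test.

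Markers of the sites known for Aqp4 were read in the same libraries, with lung epithelium as a whole standing in for the airway. The 12 lung epithelium markers, such as Sftpc, the gene of surfactant protein C, summed to 14.8 to 206 CPM in WT and to 3.19 to 34.5 CPM in Nod2-/- mice, and none was at 0 in all mice. Of the 6 markers that could be tested, edgeR called 0 at a 5% false discovery rate (FDR), beside 1.16% of all genes tested. An unadjusted p below 0.05 was found for 5, all 5 lower in Nod2-/- mice, beside 23.1% of all genes tested. DESeq2 called 5, beside 8.41% of all genes it tested. The median lung sum was 39.6 CPM in WT and 8.27 CPM in Nod2-/- mice, with overlap of the groups, and the part of lung tissue in the Aqp4 counts was not tested. In WT mice, replicates 4 and 2 had the highest lung sums, 206 and 116 CPM, with 339 and 323 normalized counts of Aqp4. WT replicate 1 had the lowest lung sum of its group, 14.8 CPM, and the highest Aqp4, 347 normalized counts. WT replicates 6 and 5, at lung sums of 17.7 and 21.4 CPM, had 114 and 193 normalized counts of Aqp4. Of the Nod2-/- mice, replicates 5 and 4 had the highest lung sums, 34.5 and 18.9 CPM, with 10.5 and 8.98 normalized counts of Aqp4, and replicate 1 had the lowest, 3.19 CPM, with the highest Aqp4 of that genotype, 27.5.

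**Figure D3:**
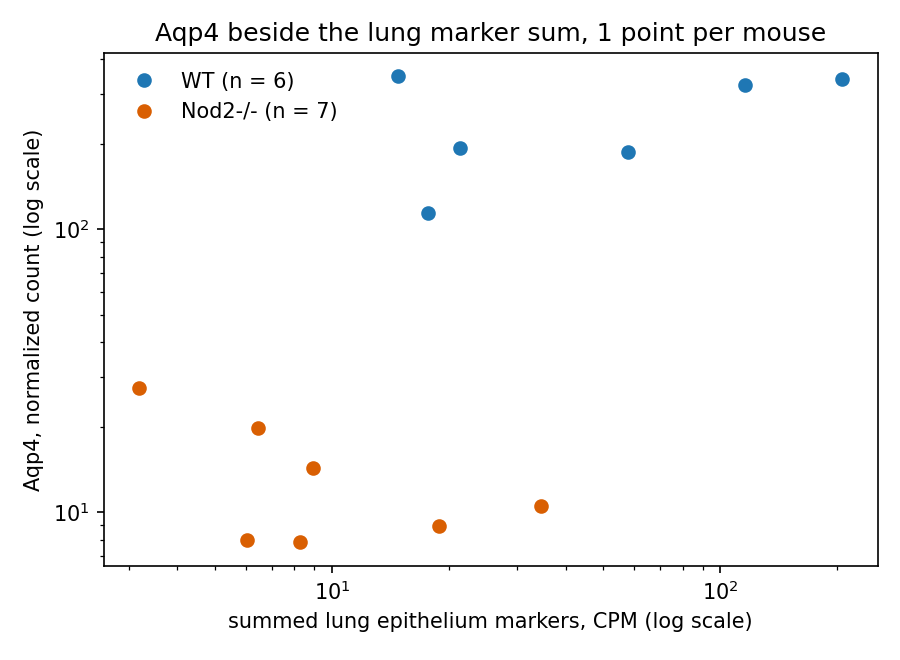
Normalized counts of Aqp4 (vertical, log axis) against the summed CPM of 12 lung epithelium markers (horizontal, log axis), 1 point per mouse (blue, 6 WT; orange, 7 Nod2-/-). The lung sums overlap between 14.8 and 34.5 CPM, and within that span the 3 WT mice have 114, 193 and 347 normalized counts of Aqp4 and the 2 Nod2-/- mice 8.98 and 10.5.

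Markers of gastric epithelium summed to at most 0.463 CPM in WT and 0.473 CPM in Nod2-/- mice, with Atp4b and Gif at 0 throughout. Markers of skeletal muscle summed to at most 0.0666 and 0.0686 CPM, with Acta1 and Myh4 at 0 throughout. The 9 cholangiocyte markers summed to 46.4 to 229 CPM in WT and 120 to 417 CPM in Nod2-/- mice, mostly from Spp1, the gene of osteopontin, at 1452 ± 1119 normalized counts (SD) in WT and 3586 ± 1608 in Nod2-/- mice with an adjusted p of 0.109 in edgeR. The keratins Krt19 and Krt7 had log2 fold changes of -0.40 ± 0.42 and -0.05 ± 0.31 (SE). Of 7 tested, edgeR called 1, beside 1.16% of all genes tested. It was Sox9, a transcription factor of duct cells, higher in Nod2-/- mice, with a log2 fold change of 1.29 ± 0.25 (SE). Its adjusted p in edgeR was 0.0324, a call kept in 6 of the 13 fits that each left out 1 mouse. The part of these cells in the level of any channel was not tested. Hepatocyte markers such as Alb, a check of the tissue, were present in every mouse, with sums of 73090 to 103665 CPM in WT and 76994 to 165479 CPM in Nod2-/- mice. Nod2-/- replicate 7 stood apart in neutrophil markers, with 823 CPM against 5.49 to 32.6 CPM in the other Nod2-/- mice. Without it, and without WT replicate 3, the log2 fold change of Aqp4 was -4.14, and those of Aqp9, Aqp8, Aqp1 and Aqp11 were -0.29, 0.28, -0.06 and -0.23.

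Aqp4 lies on chromosome 18, at 15389496 to 15410982 on the minus strand (GRCm38). The genes around it were not used to choose the family, so the calls of the edgeR fit could be counted there. Of 28 tested genes whose middle lay within 5 Mb of that of Aqp4, 3 passed 5% FDR (10.7%, beside 1.16% of all genes tested, 157 genes). The background depended on the tool and on single mice, and the contrast with it narrowed where more genes were called. DESeq2 called 5 of the 28 (17.9%) beside 8.41% of all genes it tested. Without WT replicate 3, edgeR called 3 of the 28 (10.7%) beside 8.49% of all genes. Without WT replicate 1 it called 2 (7.14%), with 41 called among all genes, a share below the 1.16% found with all mice. In that fit the share near Aqp4 was lower than with all mice, but its ratio to the share of all genes was higher. The 3 genes that edgeR called with all mice were on the same side of Aqp4, at 2.73 to 3.36 Mb. Most of the 28 tested genes lay on that side, so nothing is read from the side. The genes nearest to Aqp4 were not called. Within 2 Mb, 0 of 8 passed 5% FDR in edgeR or DESeq2 and 1 had an unadjusted p below 0.05. Most of the 8 were low, with group means of 13.8 to 49.0 normalized counts and SEs of 0.18 to 0.37. Small differences could therefore be missed there. Kctd1, 0.34 Mb away, had a log2 fold change of -0.09 ± 0.24 (SE), and Cdh2, the gene of N-cadherin at 1.3 Mb on the other side, had -0.23 ± 0.10 (SE) with an adjusted p of 0.202 in edgeR. Both were named for their place next to Aqp4, after their values were seen.

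Lama3, which encodes a laminin chain of epithelial basement membranes, fell the furthest of the 3. Normalized counts were 303, 464, 296, 394, 444 and 303 in WT and 180, 103, 121, 32.9, 74.7, 27.3 and 34.3 in Nod2-/- mice, with no overlap. The log2 fold change was -2.16 ± 0.37 (SE) with an adjusted p of 0.0150 in edgeR, adjusted by Benjamini-Hochberg over all genes tested. Ttc39c, next to Lama3, had 5240 to 8289 normalized counts in WT and 2427 to 5443 in Nod2-/- mice, overlapping only through Nod2-/- replicate 1 and WT replicate 3. Its log2 fold change was -1.01 ± 0.17 (SE) with an adjusted p of 0.0140 in edgeR. Tmem241 rose, from 72.3 to 93.2 normalized counts in WT to 99.3 to 141 in Nod2-/- mice, with no overlap, a log2 fold change of 0.56 ± 0.11 (SE) and an adjusted p of 0.0326 in edgeR. When each mouse was left out in turn, Lama3 and Ttc39c passed in 13 of 13 fits and Tmem241 in 8 of 13, the call being lost when WT replicate 1, 4 or 5 was absent, and likewise for Nod2-/- replicates 4 and 7.

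**Figure D4:**
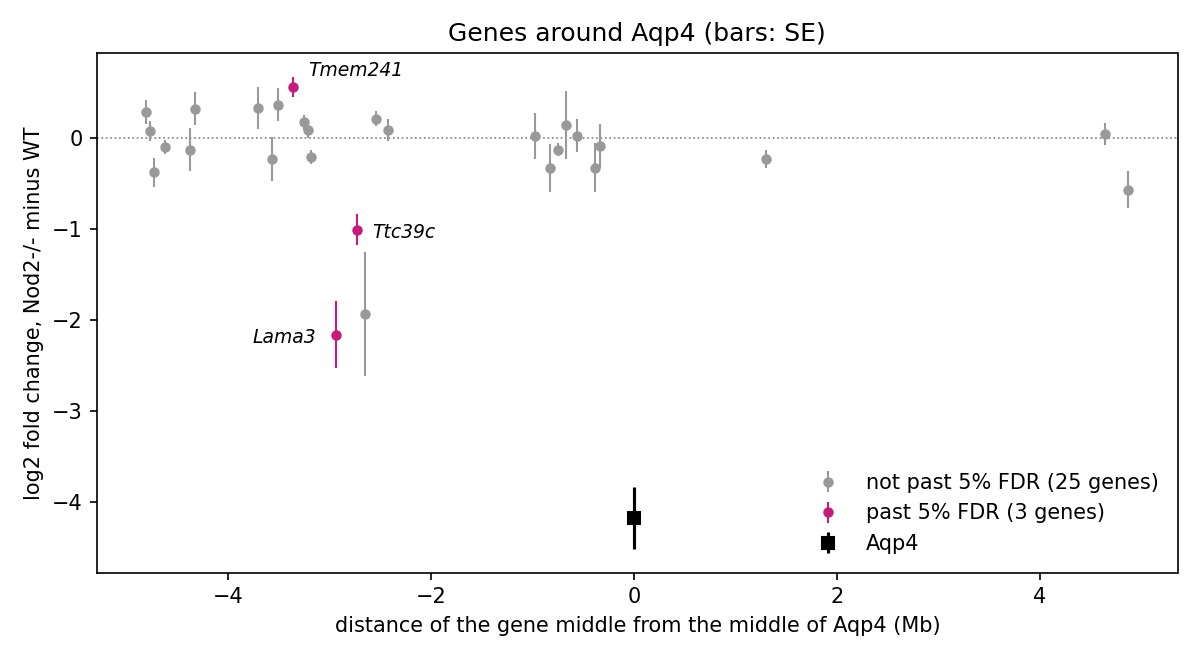
Log2 fold change, Nod2-/- minus WT, with its standard error, of the 28 tested genes within 5 Mb of Aqp4 (circles) by the distance of their middle from that of Aqp4 in Mb, with Aqp4 as a black square. The 3 genes past 5% FDR (magenta) lie 2.73 to 3.36 Mb to one side, where most of the 28 lie. The 8 genes within 2 Mb lie between -0.33 and 0.14, most of them at low counts.

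The same count was made around the other channels. Within 5 Mb, edgeR called 1 of 37 tested genes near Aqp1 (2.7%, Fkbp14) and 1 of 51 near Aqp9 (1.96%, Onecut1). Near Aqp3 and Aqp7, which are neighbours on chromosome 4, it called 1 of 72 (1.39%, Aldh1b1). In the same order, DESeq2 called 3, 2 and 4. Around Aqp8, edgeR called 0 of 141 genes, 25 had an unadjusted p below 0.05 and DESeq2 called 7. Around Aqp11, edgeR called 0 of 75, with 19 at an unadjusted p below 0.05 and 6 called by DESeq2. Among all genes tested, edgeR called 1.16% and 23.1% had an unadjusted p below 0.05, and DESeq2 called 8.41% of those it tested. Beside these shares, nothing is read from the counts around the other channels. Whether the share around Aqp4 differed from that around the other channels was not tested. By chromosome, 12 of 323 tested genes (3.72%) were called on chromosome 18, and the share was higher on chromosome 14, at 23 of 469 (4.9%). The chromosome 18 count includes Aqp4, which was chosen on this contrast, and the 3 neighbours counted above, so nothing is read from it.

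The pathways that the channels serve were read from 8 lists holding 94 genes, of which 86 were tested. By edgeR 0 of 86 passed 5% FDR, 21 (24.4%) had an unadjusted p below 0.05, beside 23.1% of all genes tested, and DESeq2 called 9 (10.5%), beside 8.41% of all genes it tested. Without WT replicate 3, edgeR called 8 (9.30%), beside 8.49% of all genes, and without Nod2-/- replicate 5 it called 1. The median log2 fold change of the 86 was -0.04. Single lists held 7 to 16 tested genes. Their shares at an unadjusted p below 0.05 ran from 9.09% to 45.5% and are given below, to be set beside the 23.1% of all genes. Counts by DESeq2 are to be set beside its 8.41%. Whether any list differed from all genes was not tested. Genes named below are among those with the highest counts in each list, or are those that DESeq2 called or that moved furthest. The latter were added after their values were seen. Kcnj10 is outside this rule and was likewise named after its values were seen.

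Glycerol that enters through Aqp9 is phosphorylated by glycerol kinase and then used for glucose or triglyceride. Gk, the kinase, had normalized counts of 2374 ± 153 (SD) in WT and 2519 ± 241 in Nod2-/- mice, a log2 fold change of 0.09 ± 0.08 (SE). Gpd1, which links glycerol 3-phosphate to glycolysis, had 0.01 ± 0.12, and Gpam, the first acyltransferase of triglyceride synthesis, 0.05 ± 0.31. Of the 8 tested enzymes of this list, edgeR called 0, 3 (37.5%) had an unadjusted p below 0.05 and DESeq2 called 2. These were Gpat4, another acyltransferase, at -0.46 ± 0.15 with an edgeR adjusted p of 0.0957, and Gpd2, the mitochondrial glycerol 3-phosphate dehydrogenase, at -0.55 ± 0.17 with an edgeR adjusted p of 0.0923.

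Lipases release glycerol from fat. Of 9 tested, edgeR called 0, 4 (44.4%) had an unadjusted p below 0.05 and DESeq2 called 2. Mgll, which splits monoglycerides, was at 4654 ± 991 normalized counts (SD) in WT and 2975 ± 1056 in Nod2-/- mice, a log2 fold change of -0.65 ± 0.22 (SE) with an edgeR adjusted p of 0.113. Lpl, the lipase of capillary walls, was at 199 ± 137 and 441 ± 235, a log2 fold change of 1.14 ± 0.41. The widest difference was that of Pnpla3, at 22.0 ± 36.5 in WT and 108 ± 79.4 in Nod2-/- mice, a log2 fold change of 2.26 ± 0.82 with an edgeR adjusted p of 0.129. Without WT replicate 3 it was 3.86 with an adjusted p of 0.0174, and without each other mouse it lay between 1.98 and 2.46 and was not called. Lipa, Lipc and G0s2 had log2 fold changes of -0.08, -0.55 and -0.33.

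Of the 7 enzymes that make glucose from glycerol, edgeR called 0, 1 (14.3%) had an unadjusted p below 0.05 and DESeq2 called 1. Fbp1, Tpi1 and Tkfc had log2 fold changes of -0.03, 0.20 and 0.08, and Gpi1, the one DESeq2 called, had 0.39 ± 0.11 (SE) with an edgeR adjusted p of 0.0772. Insulin and the PPAR receptors control the aquaglyceroporin genes. Of 9 tested regulators, edgeR and DESeq2 called 0 and 1 (11.1%) had an unadjusted p below 0.05. That was Ppara, the PPAR of hepatocytes, at -0.57 ± 0.22, and Pck1, a target of insulin action, was at -0.33 ± 0.21 and Insr and Akt2 at -0.10 and -0.08.

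Syntrophins and the dystroglycan complex hold Aqp4 at the membrane in brain. Of 11 tested partners, edgeR and DESeq2 called 0 and 1 (9.09%) had an unadjusted p below 0.05. The median log2 fold change of the partners was 0.12, beside -4.17 for Aqp4 itself. Sntb1, Dag1, Utrn and Agrn had log2 fold changes of 0.08, 0.12, -0.19 and 0.12. Kcnj10, the potassium channel found beside Aqp4 in astrocytes, was at 36.3 ± 19.0 normalized counts (SD) in WT and 42.1 ± 24.3 in Nod2-/- mice. The gene with the unadjusted p below 0.05 was Sgcb, a sarcoglycan, at 0.73 ± 0.24 (SE).

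Aqp8 and Aqp1 work beside the transporters of bile secretion. Of 11 tested, edgeR called 0, 5 (45.5%) had an unadjusted p below 0.05 and DESeq2 called 2. Slc10a1 and Abcb11, which take up and export bile acids, had log2 fold changes of -0.32 ± 0.14 and -0.17 ± 0.14 (SE) and Abcc2 had -0.38 ± 0.18. Slc12a2, a sodium, potassium and chloride cotransporter, was at 216 ± 36.1 normalized counts (SD) in WT and 143 ± 25.5 in Nod2-/- mice, a log2 fold change of -0.60 with an edgeR adjusted p of 0.0549. Atp1b1, a subunit of the sodium pump, was at 799 ± 160 and 1237 ± 264, a log2 fold change of 0.63 with an edgeR adjusted p of 0.0601.

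Cell volume and osmolyte genes follow water movement. Of 15 tested, edgeR and DESeq2 called 0 and 2 (13.3%) had an unadjusted p below 0.05. Wnk1, Slc6a6, Slc12a7 and Slc6a12 had log2 fold changes of -0.03, -0.19, 0.01 and -0.25. Hydrogen peroxide can pass through Aqp8. Of 16 tested genes that make or remove it, edgeR called 0, 4 (25.0%) had an unadjusted p below 0.05 and DESeq2 called 2. Cat, the catalase that breaks it down, was at 45275 ± 8016 normalized counts (SD) in WT and 27188 ± 9765 in Nod2-/- mice, a log2 fold change of -0.74 ± 0.23 (SE) with an edgeR adjusted p of 0.0932. Nox4, an oxidase that makes it, was at -0.65 ± 0.18 with an edgeR adjusted p of 0.0723. Gpx1, Prdx1 and Sod1 had log2 fold changes of -0.38, -0.04 and -0.15.

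**Figure D5:**
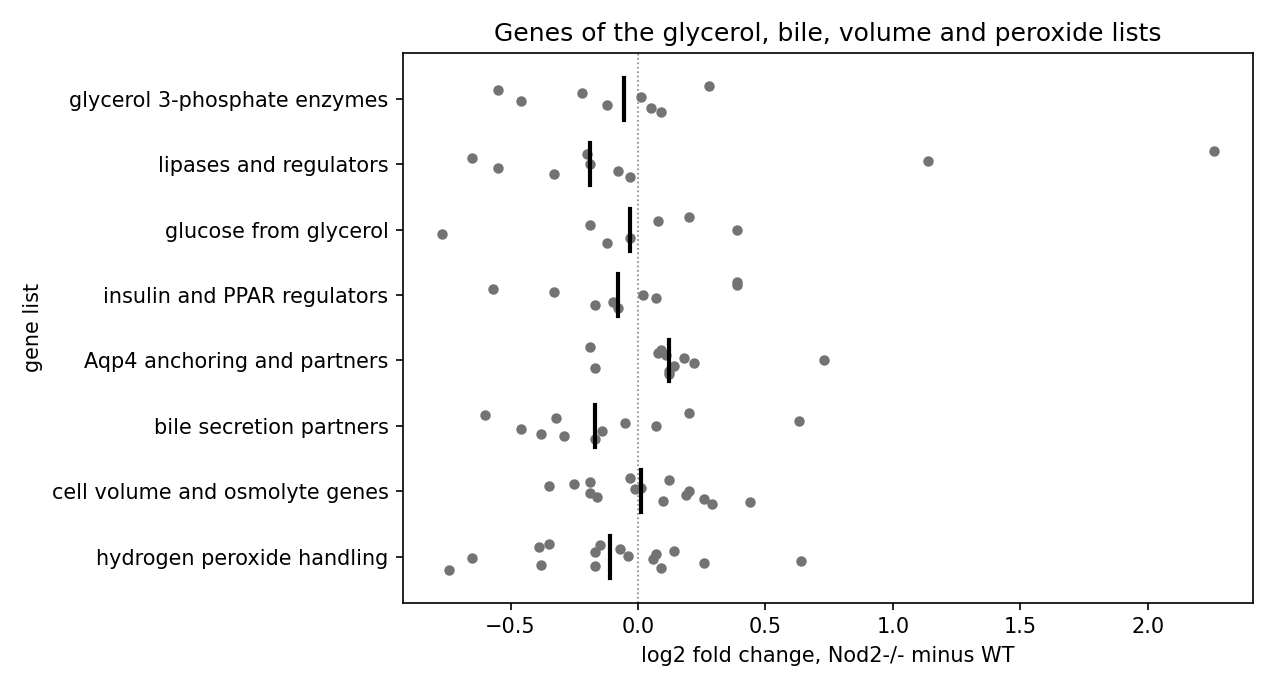
Log2 fold change, Nod2-/- minus WT, of the 86 tested genes in 8 lists of genes around the channels, 1 point per gene, with the median of each list as a black line. The medians lie between -0.19 for the lipases and 0.12 for the Aqp4 partners, and the point farthest to the right is Pnpla3 at 2.26.

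The channels were also compared among mice of a genotype. After the genotype mean was subtracted from log2 CPM, 10 pairs of the 5 channels were compared, and 0 had a p below 0.05 before or after adjustment. The closest pair was Aqp8 and Aqp11, with a Pearson's r of 0.55 (permutation p = 0.0716, adjusted 0.716) and a Spearman's rho of 0.58 (permutation p = 0.0545, adjusted 0.545), both two-sided. Without the 2 mice farthest from the median of Aqp8, r was 0.53. Within WT mice r was 0.76 and within Nod2-/- mice 0.29. Other pairs rested more on single mice. Aqp1 with Aqp4 had r = 0.31, and 0.61 without the 2 mice farthest from the median of Aqp1. Aqp9 with Aqp11 had r = -0.06, and -0.49 without the 2 mice farthest from the median of Aqp9. Without Nod2-/- replicate 4, r was -0.54 for Aqp9 with Aqp11 and -0.47 for Aqp8 with Aqp9. Aqp4 with Aqp9 gave r = 0.74 within WT and -0.13 within Nod2-/- mice, and 0.16 over all 13 (permutation p = 0.62).

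The genes whose log2 CPM followed Aqp4 most closely over the 13 mice, as a description that includes the genotype difference, were Gm14584 (r = 0.977), Gm3375 (r = 0.957), Atp6v0a2 (r = 0.951), Trim13 (r = 0.950) and Tbc1d9b (r = 0.939). Trim13 had a log2 fold change of -4.22 and Gm3375 of -3.98, close to the value for Aqp4, while Atp6v0a2 had -0.42. With the genotype mean subtracted, the order changed to Slc35d2 (r = 0.929), Gtpbp8 (r = 0.924), Cers2 (r = 0.917), Maob (r = 0.910) and Pcca (r = 0.901), and Gm3375 fell to r = 0.126. By that measure the nearest genes were Col13a1 and Sp4 for Aqp1 (r = 0.916 and 0.913), Pparg and Nabp1 for Aqp8 (0.872 and 0.870), Rdh16 and Txn1 for Aqp9 (0.932 and 0.919) and Prkcz2 and Smarca4 for Aqp11 (0.890 and 0.871). These are the highest r among 13545 genes over the same 13 libraries, and carry no p.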

How the data were processed

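Liver polyA RNA of individual mice was sequenced. The authors trimmed paired reads with Trimmomatic 0.33, mapped them with TopHat2 2.1.1 to GRCm38 with GENCODE release 16, and deposited raw counts per gene and mouse; the counting program and its strand setting are not given in the sources used here. 1 blank line was left out. Of 53465 gene identifiers, 53274 matched GENCODE release 21, which gave symbols, positions and transcripts. The channels and gene lists were chosen with earlier results of these data known. Genotypes come from the labels. Counts were tested in R 4.3.3 with edgeR 4.0.16 (filterByExpr, TMM, quasi-likelihood test, genotype alone, all 13 mice, Benjamini-Hochberg at 5%), tested on simulated data first. The 13545 genes tested held 99.9% of counts. DESeq2 1.42.0 and limma 3.58.1 (voomWithQualityWeights) were alternatives. CPM used TMM library sizes, with a prior count of 2 on the log2 scale. Correlations used 100000 permutations within genotype. Named genes are the 7 channels, the other aquaporins, called neighbours of Aqp4, the genes with the highest counts in each list and those most like each channel; any others were named after their values were seen. Some genes that this rule names are not reported here. No pair of libraries agreed within sampling noise, with a chi-square of 10.7 to 160 for each degree of freedom.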

Additional observations from a re-analysis of the deposited data

How the results depend on the processing

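Over 114 values of the 5 channels' log2 fold changes under alternatives, 107 kept their direction and all 114 moved by less than 1 SD. Aqp4 stayed between -4.43 and -4.05, Aqp11 between -0.36 and -0.18 and Aqp9 between -0.29 and -0.1, while Aqp1 (-0.09 to 0.03) and Aqp8, at 0.18 but without Nod2-/- replicate 2 at -0.0, crossed 0. Aqp4 was not in the fit with at least 10 counts in every mouse. The number of genes past 5% FDR depended on the tool: 157 by edgeR, 1209 by DESeq2 and 843 by voom. It was 567 without both WT replicate 3 and Nod2-/- replicate 7, and 41 to 1156 when each mouse was left out, highest without WT replicate 3 and lowest without WT replicate 1. Near Aqp4, 3 of 28 tested genes passed in edgeR (10.7%, beside 1.16% of all genes). By DESeq2 5 passed (17.9%, beside 8.41%). In edgeR, 0 passed within 2 Mb and 5 of 67 within 10 Mb (7.46%). Listed pathway genes past 5% FDR were 0 by edgeR, 9 by DESeq2 (10.5%, beside 8.41% of all genes it tested) and 6 by voom. They were 5 without both mice named above, and 0 to 8 with each mouse left out. The 8 came without WT replicate 3 (9.30%, beside 8.49% of all genes). The settings with the most listed genes called were those that called the most genes among all tested. Nothing is read from these counts, and the cause of the dependence was not tested.

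Replicate numbers did not pair the mice (correlations of deviations between same-numbered mice from -0.302 to 0.304), and the fit with the replicate block, in which Nod2-/- replicate 7 had no partner, called 35 genes, 0 near Aqp4 and 0 in the lists. Depth limits Aqp3, Aqp7 and Aqp5, which had too few counts to compare.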
